A study of Zea mays with 36 samples.

Results

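The 6 genes described here serve cellular ATP supply in maize: ATP2, ANT1, ANT2 and porin1 of the mitochondrion, and GAPC2 and GAPC3 of cytosolic glycolysis. They were chosen by symbol or synonym in the platforms' gene annotation, with every probe annotated to 1 of them, and they are 6 of 740 named genes with a value. RNA of the shoot apical meristem (SAM) of the inbred line B73, laser-captured along with its youngest leaf primordia (P0 and P1), was set against RNA of above-ground seedlings of the same age, 14 days, from the same batch of plants. The stated aim was to find transcripts preferentially expressed in the SAM. Each of 6 biological replicates paired a pool of 6 to 10 meristems with a pool of 6 seedlings, which themselves contain the meristem. Both RNAs were amplified from about 10 ng with T7 polymerase, and every pair was used on 2 slides, 1 from each of 2 slide sets with different cDNA clones. The 12 slides gave 36 deposited scans, 3 per slide, at low, medium and high setting. SAM RNA carried Cy3 on odd-numbered replicates and Cy5 on even-numbered ones. A kit for small samples served for the meristems and a phenol solution for the seedlings, so the effects of extraction and of tissue cannot be told apart.

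In respiration, the proton gradient across the inner mitochondrial membrane drives the ATP synthase, whose beta subunit, encoded by ATP2, carries the catalytic sites. The ADP/ATP carriers ANT1 and ANT2 exchange the new ATP for cytosolic ADP across the inner membrane, and porin1, a voltage-dependent anion channel, lets both nucleotides through the outer membrane. Glyceraldehyde-3-phosphate dehydrogenase of the cytosol, encoded by the GAPC genes, catalyses the oxidation step of glycolysis and makes NADH. When pyruvate does not enter the mitochondrion, pyruvate decarboxylase and alcohol dehydrogenase can reoxidise that NADH by fermentation. In maize, GAPC3 and adh1 are among the genes known to be induced by lack of oxygen. The part of oxygen in the ratios reported here was not tested.

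A value here is the log2 ratio of SAM and seedling signal, with scans median-centred and then averaged per slide. A gene's value is the mean of its probes. The numerator of the deposited ratios is not given in the sources used here. Positive values are called the SAM side and negative values the seedling side, a likely direction taken from photosynthesis genes. Of the 11 on slide set 1, 9 lay on the negative side past the threshold, 1 on the positive side, and 1 was not called. The highest of these 11 lay at 1.09. On set 2, 9 of 9 lay on the negative side past the threshold. The medians were -5.71 on set 1 and -4.53 on set 2. All 7 measured markers of the SAM and leaf primordia were called on the positive side of set 1, and 6 of 7 on set 2. These marker lists contain genes of both tissues, and their part in the members' ratios was not tested. In such bulk samples, fewer cells of a type and less RNA per cell cannot be told apart. A gene or probe was called at an adjusted p under 0.05 in limma, over all genes or all probes of a slide set.

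Of the 6 genes on slide set 1, 5 were called toward the seedling, as were 3 of the 4 measured on slide set 2. None was called on the SAM side, and GAPC3 was not called on either set. The median ratio of the members was -1.04 on set 1 and -1.20 on set 2, against -0.24 over all 582 named genes of set 1 and -0.22 over all 455 of set 2. Calls were common in these data: 45.2% of named genes of set 1 were called toward the seedling and 27.1% toward the SAM. For set 2 these shares were 45.7% and 27.9%. ANT1 had 1 probe on set 2, which held no value, and ANT2 had none annotated there.

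Among the probes, 21 of 28 on set 1 were called toward the seedling, 2 toward the SAM, and 5 in neither direction. Set 2 had 6 of 7 probes with a value called toward the seedling and 1 not called. Over all probes of set 1, 31.0% were called toward the seedling and 31.5% toward the SAM, and over those of set 2 31.2% and 33.4%. Probes of 1 gene are clones of the same transcript and are not independent of each other. A cDNA clone can also bind the transcript of a close relative, which was not tested.

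**Figure D1:**
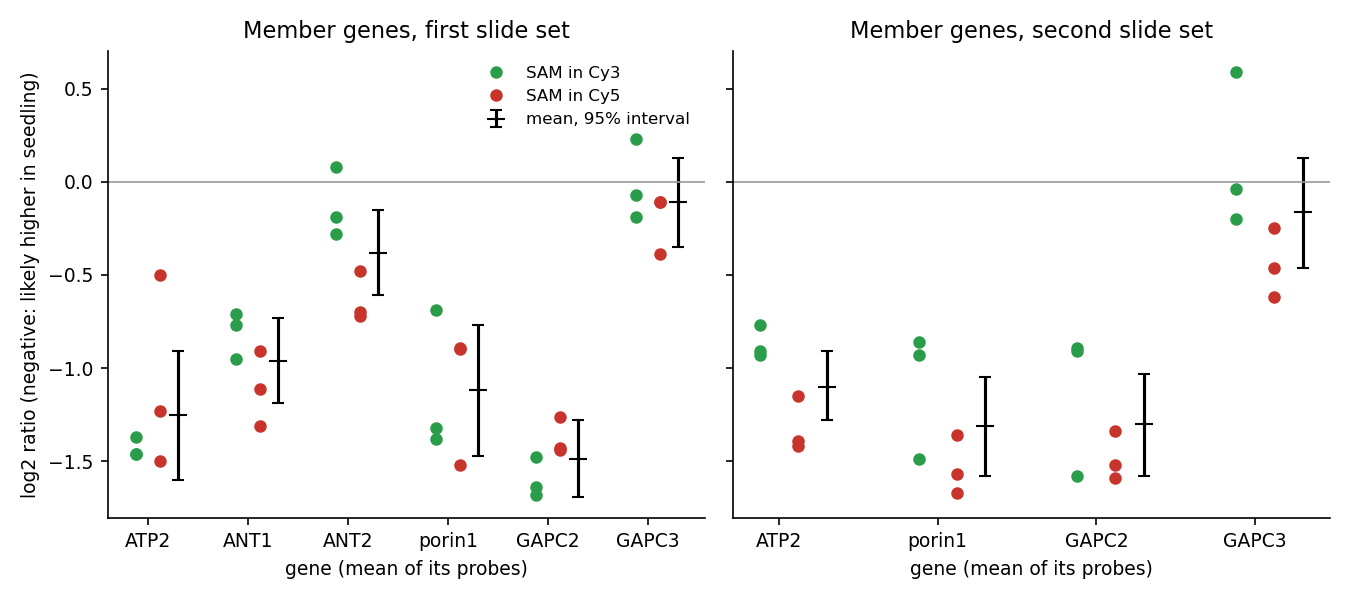
Log2 ratio of each member gene on each slide, for slide set 1 (left, 6 genes) and slide set 2 (right, 4 genes). Points are slides, coloured by the dye of the SAM RNA, and the bar beside them is the mean with its 95% interval. All slides of ATP2, ANT1, porin1 and GAPC2 lie below 0, and those of GAPC3 lie on both sides of it.

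ATP2, the ATP synthase beta subunit, had 1 probe on slide set 1, with ratios of -1.46, -1.23, -1.37, -0.50, -1.46 and -1.50 in replicates 1 to 6. All slides lay below 0, and replicate 4 stood nearest to it. The mean was -1.25 (SE 0.14, SD 0.38, n = 6 slides; adjusted p = 0.00031), a 2.38-fold difference. Other clones, 2 on set 2, gave -0.93, -1.42, -0.77, -1.15, -0.91 and -1.39, with a mean of -1.10 (SE 0.08, SD 0.27; adjusted p = 1.97e-05). There replicate 4 lay within the range of the other slides. The clones of set 2 had ratios of -0.83 and -1.36, and both were called. Of the named genes, 24.7% on set 1 and 28.1% on set 2 had a lower ratio than ATP2.

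ANT1, an ADP/ATP carrier, had 7 probes on set 1. Its gene values were -0.77, -1.31, -0.95, -0.91, -0.71 and -1.11, all below 0. The mean was -0.96 (SE 0.09, SD 0.22; adjusted p = 0.000156), a 1.95-fold difference. Of its probes, 6 were called on the seedling side, with ratios from -1.42 to -0.83. Probe 8098 was not called: it lay at -0.06 (95% interval -0.39 to 0.27; adjusted p = 0.73), above 0 on 3 slides and below 0 on 3. A further probe, annotated both to ANT1 and to another gene, was not used.

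ANT2, the second carrier, lay nearer to 0, with gene values of -0.28, -0.72, 0.08, -0.70, -0.19 and -0.48. The mean was -0.38 (SE 0.09, SD 0.31; adjusted p = 0.0102), a 1.30-fold difference. A lower ratio than that of ANT2 was found in 43.5% of the named genes of set 1. Of the slides, 5 lay below 0, and the 3 with SAM in Cy5 were all lower than the 3 with SAM in Cy3. With SAM in Cy3 alone the mean was -0.13 and the call was lost (adjusted p = 0.471).

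The 5 probes of ANT2 did not give 1 value. Probes 829 and 17430 were called on the seedling side at -0.81 and -0.65, the latter not without replicate 2, 3 or 4 (adjusted p up to 0.0685). Probe 5268 at -0.56, probe 13537 at -0.24 and probe 9602 at 0.35 were not called. Without replicate 3 or 6, probe 5268 was called, and without replicate 6, probe 9602 was (lowest adjusted p 0.0316 and 0.0431). Probe 829 had a mean of 0.01 on slides with SAM in Cy3 and -1.63 with SAM in Cy5, a dye term of 1.64 (adjusted p = 0.0371). Probe 5268 lay at 0.20 and -1.31 in the same order, with a dye term of 1.50 that did not pass the threshold (adjusted p = 0.0969).

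Within slides, ANT1 was lower than ANT2 on 6 of 6, by differences from -1.02 to -0.21. The mean difference was -0.58 (SD 0.26; exact sign-flip permutation test, two-sided, p = 0.03125, the smallest that 6 slides allow). All pairs of members of 1 family were tested, 3 in all, after their values had been seen, and the adjusted p was 0.03125 for each.

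The outer membrane channel porin1 had 1 probe on set 1, at -1.32, -1.52, -1.38, -0.89, -0.69 and -0.90. The mean was -1.12 (SE 0.14, SD 0.33; adjusted p = 0.000569), a 2.17-fold difference. Its 2 clones of set 2 averaged -0.93, -1.57, -1.49, -1.67, -0.86 and -1.36, with a mean of -1.31 (SE 0.11, SD 0.34; adjusted p = 4.45e-05). All 12 slides lay below 0. The clones of set 2 differed in size, at -0.97 and -1.66, and both were called.

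GAPC2 had the lowest gene ratio of the members on set 1 and a ratio level with porin1 on set 2. Its 8 probes on set 1 averaged -1.64, -1.44, -1.48, -1.43, -1.68 and -1.26, a narrow range. The mean was -1.49 (SE 0.08, SD 0.15; adjusted p = 1.62e-05), a 2.80-fold difference. The 2 clones of set 2 averaged -1.58, -1.52, -0.91, -1.59, -0.89 and -1.34, with a mean of -1.30 (SE 0.11, SD 0.32; adjusted p = 6.01e-05). Of the named genes, 21.5% on set 1 and 24.2% on set 2 had a lower ratio.

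Of the GAPC2 probes of set 1, 7 were called on the seedling side. Probes 5257, 4476 and 11814 lay at -2.20, -2.19 and -2.16, and the other four at -1.73, -1.53, -1.38 and -1.19. Probe 2200 went the other way, at 1.11, 0.23, 0.96, -0.42, 0.76 and 0.17. Its mean of 0.47 (SE 0.13; adjusted p = 0.0199) was called on the SAM side, with 1 slide below 0. Its mean was 0.94 with SAM in Cy3 and -0.01 with SAM in Cy5, with a dye term that did not pass the threshold (adjusted p = 0.0606). Its call was lost without replicate 1, 2, 3 or 6 (adjusted p up to 0.0717). The median of the 8 probes was -1.63.

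**Figure D2:**
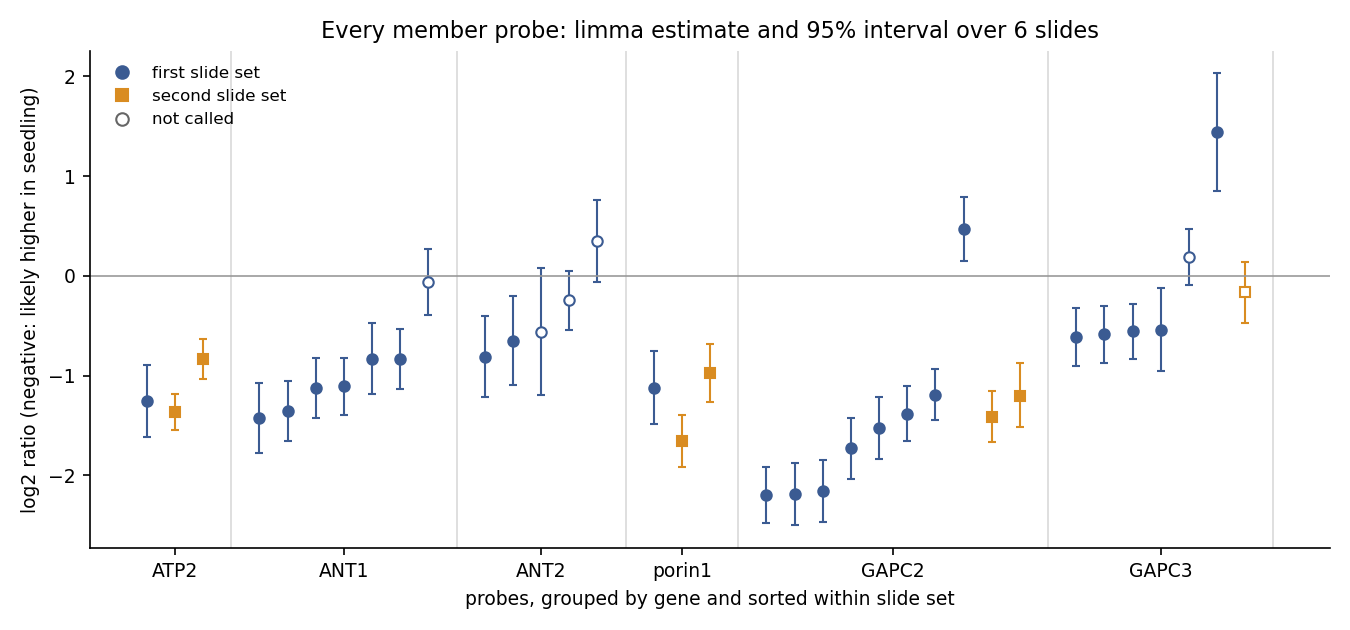
Limma estimate of the log2 ratio with its 95% interval for each of the 28 member probes of slide set 1 (circles) and the 7 of slide set 2 (squares), grouped by gene. Open symbols were not called. GAPC2 has 7 probes between -2.20 and -1.19 and 1 at 0.47, and GAPC3 has 4 between -0.61 and -0.54 and 1 at 1.44.

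GAPC3 encodes the same enzyme activity, and its gene values lay near 0. On set 1 its 6 probes averaged 0.23, -0.39, -0.07, -0.11, -0.19 and -0.11. The mean was -0.11 (95% interval -0.35 to 0.13, SD 0.20; adjusted p = 0.355). Its single clone of set 2 gave 0.59, -0.62, -0.20, -0.25, -0.04 and -0.46, with a mean of -0.16 (95% interval -0.46 to 0.13, SD 0.42; adjusted p = 0.269). Both sets had 5 slides below 0 and 1 above, replicate 1 in each case. The sets share their RNA pools, so this is no independent repeat. Without replicate 1, set 2 gave -0.28 and a call (adjusted p = 0.039), and with SAM in Cy5 alone -0.44 and a call (adjusted p = 0.0382).

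The mean of GAPC3 on set 1 covers probes that differ. Probes 2544, 7472, 2094 and 13030 were called on the seedling side, at -0.58, -0.55, -0.54 and -0.61. The call of probe 2094 was lost without replicate 2, 3, 5 or 6 (adjusted p up to 0.0985). Probe 593 at 0.19 was not called (adjusted p = 0.199). Probe 7202 lay on the SAM side on all slides, at 2.55, 1.05, 0.86, 0.94, 1.33 and 1.90, with a mean of 1.44 (SE 0.25; adjusted p = 0.00208). The median of the 6 probe estimates was -0.54, below the mean of -0.11. With the median of the probes on each slide as the gene value, GAPC3 on set 1 lay at -0.19 and was not called (limma, adjusted p = 0.0828).

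The dyes also divided these probes. Probe 2094 had a mean of 0.22 with SAM in Cy3 and -1.29 with SAM in Cy5 (dye term 1.52, adjusted p = 0.0416). Probe 13030 went the opposite way, at -1.38 with SAM in Cy3 and 0.16 with SAM in Cy5 (dye term -1.54, adjusted p = 0.0329). Probe 7472 lay between -0.79 and -0.32 on all slides, at -0.53 and -0.58 in the 2 orientations.

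Within slides, GAPC2 was lower than GAPC3 on 6 of 6 slides of set 1, by -1.87 to -1.04. The mean difference was -1.38 (SD 0.29; exact sign-flip permutation test, two-sided, p = 0.03125, adjusted p = 0.03125). The difference on set 2 was -1.14 (SD 0.54, from -2.16 to -0.72) with the same exact p of 0.03125 and the same sign on all 6 slides. Both are the smallest p the design allows. In the low scan alone the difference on set 2 was -1.69, and in the high scan alone -0.34.

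The ratio of GAPC2 differed between the scans of a slide. Its mean on set 2 was -1.85 (SD 0.23) in the low scan, -1.56 (SD 0.42) in the medium and -0.50 (SD 0.36) in the high. The high scan lay above the low one on 6 of 6 slides, by 1.35 (SD 0.16). Both clones shifted, from -1.78 to -0.67 for probe 6757 and from -1.93 to -0.33 for probe 12321. Among set 1 clones, probe 16472 shifted from -1.91 to -0.75 and the ANT1 probe 5906 from -1.15 to -0.19, both on 6 of 6 slides.

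Shifts of this size occurred in other clones too. Of all probes at or below -1 in the low scan, 27.5% on set 1 and 24.0% on set 2 were higher by 1 or more in the high scan. The median shift of such probes was 0.29 and 0.21, against 1.11 and 1.60 for the GAPC2 clones of set 2. These probes were picked for a low value in the low scan. The 3 GAPC2 probes with the lowest ratios on set 1 differed by 0.08 to 0.50 between low and high scans. GAPC3 on set 2 gave -0.17, -0.16 and -0.16 in the low, medium and high scan, and porin1 on set 1 -1.13, -1.11 and -1.11. GAPC2 was called in each scan alone on both sets.

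**Figure D3:**
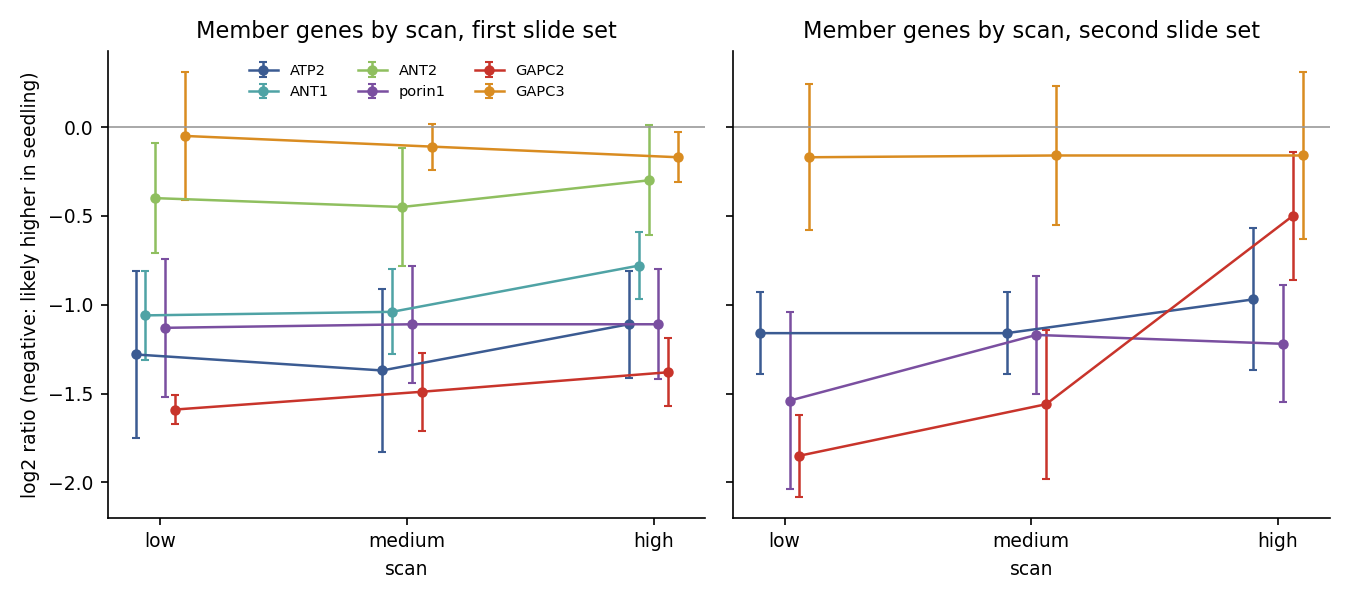
Mean log2 ratio of each member gene over 6 slides in the low, medium and high scan, with SD bars, for both slide sets. GAPC2 on set 2 goes from -1.85 to -0.50, and GAPC3 on that set stays between -0.17 and -0.16.

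Respiration and glycolysis were contrasted within each slide as the mean of the measured mitochondrial members minus the mean of GAPC2 and GAPC3. On set 1, the mitochondrial members averaged -0.93 (SD 0.17) and the glycolytic pair -0.80 (SD 0.10). The contrast was -0.25, -0.28, -0.13, 0.02, 0.17 and -0.31, with a mean of -0.13 (SD 0.19). The mean was smaller than the SD between slides, and 4 of 6 slides lay below 0. For set 2, where ATP2 and porin1 alone stood for respiration, the contrast was -0.43, -0.43, -0.58, -0.50, -0.42 and -0.48, with a mean of -0.47 (SD 0.06). There all slides lay below 0, but the mean differed between scans, at -0.34 in the low, -0.30 in the medium and -0.77 in the high scan alone.

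The glycolytic side of this contrast is the mean of an unequal pair, and the contrast turned with the gene used. Against GAPC2 alone it was 0.56 (SD 0.26) on set 1, above 0 on 6 of 6 slides. On set 2 it was 0.10 (SD 0.30), above 0 on 4 slides and below 0 on 2, and its sign turned with the scan. In the low scan of set 2, GAPC2 (-1.85) lay below ATP2 (-1.16) and porin1 (-1.54). In the high scan, GAPC2 (-0.50) lay above ATP2 (-0.97) and porin1 (-1.22). Against GAPC3 alone the contrast was -0.82 (SD 0.22) and -1.04 (SD 0.26), below 0 on all slides of both sets. With ATP2 and porin1 as the respiratory side of set 1 too, it was -0.39 (SD 0.29). No p is given for these scores over chosen members.

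**Figure D4:**
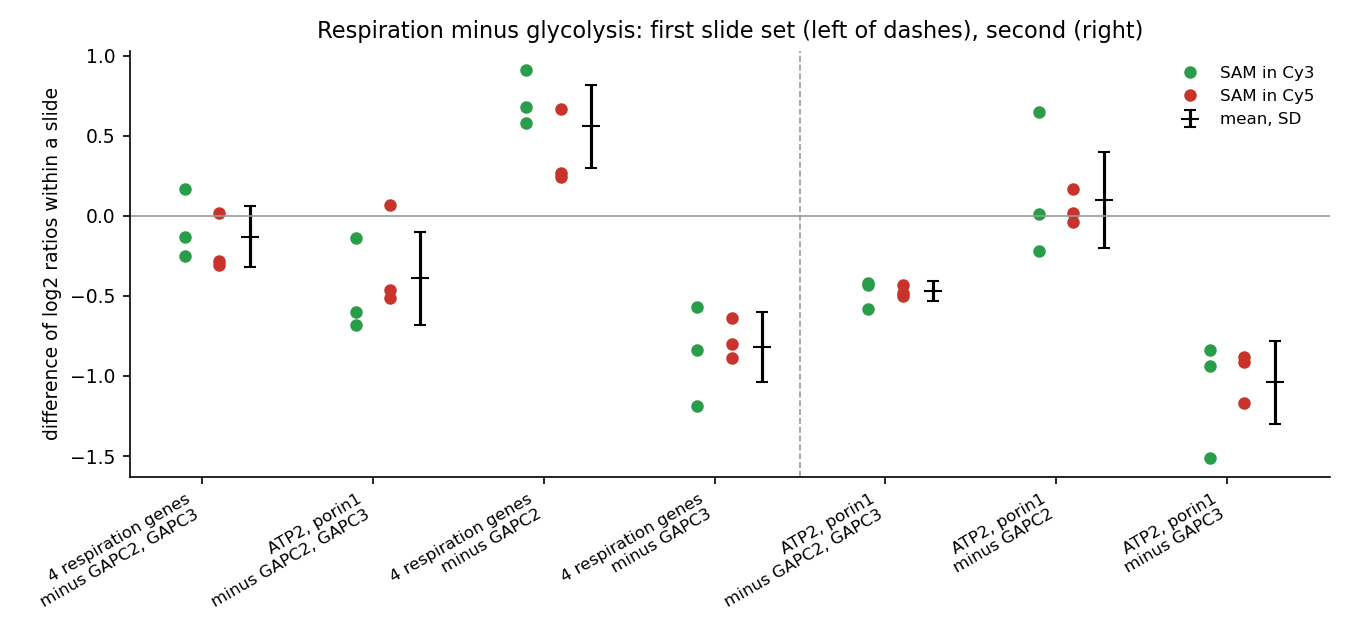
Difference of log2 ratios within a slide between the mitochondrial and the glycolytic members, for each slide (points, coloured by the dye of the SAM RNA), with mean and SD. With both GAPC genes the mean is -0.13 on set 1 and -0.47 on set 2. It is 0.56 and 0.10 against GAPC2 alone, and -0.82 and -1.04 against GAPC3 alone.

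Other glycolytic genes were read from a list that leaves out the members. Of 7 measured on set 1, 5 were called toward the seedling, none toward the SAM and 2 not at all (median -0.36). Over all named genes of set 1, 45.2% were called toward the seedling and the median was -0.24. With any 1 replicate left out, the count of these glycolytic genes called toward the seedling was 3 or 4, never 5. The glucose-6-phosphate isomerase phi1 (-0.25) lost its call without replicate 1, 2, 4, 5 or 6, and the enolase eno1 (-0.36) without replicate 1, 2 or 3. The 3 probes of phi1 ranged from -0.95 to 0.47, with 1 called in each direction. The 6 of eno1 ranged from -1.13 to 1.12, with 4 called toward the seedling and 1 toward the SAM. On set 2, phi1 lay at -0.68 (adjusted p = 0.00185) and eno1 at -0.79 (adjusted p = 0.00101). phi1 was singled out after its values were seen. All 7 of 7 measured on set 2 were called toward the seedling (median -0.87), against 45.7% of all named genes there (median -0.22). Phosphofructokinase pfk1, which commits sugar phosphate to glycolysis, lay at -2.11 (SE 0.15; adjusted p = 3.62e-05) on set 1. It lay at -3.16 (SE 0.16; adjusted p = 3.41e-06) on set 2. The aldolase ald1, which splits the sugar into trioses, lay at -1.21 on both (adjusted p = 8.2e-05 and 2.32e-05).

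GAPC1, a further cytosolic GAPDH with 6 probes on set 1, gave -0.92, -1.38, -0.56, -0.90, -1.06 and -1.17. Its mean of -1.0 (SE 0.11; adjusted p = 0.000287) lay between GAPC2 and GAPC3. The non-phosphorylating GAPDH gpn1 lay at -2.95 (SE 0.11; adjusted p = 9.19e-07) on set 2. The plastid forms, which serve photosynthetic carbon fixation, were gpb1 at -0.45 on set 1 (adjusted p = 0.0769, not called; -0.63 and called without replicate 6, adjusted p = 0.0174) and gpa1 at -0.89 on set 2 (adjusted p = 0.00108). Singled out after their values were seen, the fructokinase frk1 and the enolase eno2 were not called on set 1, at 0.14 and 0.06. The 8 eno2 probes behind that mean ranged from -2.43 to 1.23, with 1 called toward the seedling, 4 toward the SAM and 3 not called. frk1 and eno2 were called on set 2, at -0.87 and -0.81, and the difference between sets was not tested.

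Fermentation genes included the pathway genes called on the SAM side. Alcohol dehydrogenase adh1 had 4 probes on set 1, all called on the SAM side, and gene values of 0.95, 0.71, 1.02, 1.11, 1.10 and 0.69. Its mean was 0.93 (SE 0.10; adjusted p = 0.000204), a 1.91-fold difference. The pyruvate decarboxylases pdc1 at 0.61 (adjusted p = 0.0238) and pdc3 at 0.42 (adjusted p = 0.0259) were also called there. Thus 3 of 3 measured genes were called in that direction, against 27.1% of all named genes of set 1. The slides of pdc1 and pdc3 ranged from 0.01 to 1.53 and from -0.09 to 1.30. The call of pdc1 was lost without replicate 1 or 5 (adjusted p up to 0.077), and that of pdc3 without replicate 2 or 6 (up to 0.0713). The set 2 gene pdc2 lay at 0.37 (adjusted p = 0.0436), a call that held only without replicate 5 among the left-out replicates. Its single clone was not called in the fit over all probes (limma, adjusted p = 0.0557). adh2 was called on the seedling side at -0.73 (adjusted p = 0.00155). The call of adh1 held with each replicate left out (highest adjusted p 0.00147). adh1 and adh2 were measured on different slide sets and were not compared by a test.

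At the entry to the mitochondrion, PDHE1-B, the beta subunit of the E1 component of pyruvate dehydrogenase, lay at -1.50 (adjusted p = 5.61e-05) on set 1 and -0.85 (adjusted p = 0.000458) on set 2. PDK1, the kinase that inactivates that complex, lay at -1.28 (adjusted p = 4.52e-05) on set 1. The uncoupling protein PUMP, a carrier of the inner membrane, lay at -0.90 (adjusted p = 0.00092). Of the 3 other porin genes on set 1, vdac1a at 0.25 (adjusted p = 0.132) and vdac1b at 0.10 (adjusted p = 0.446) were not called. The third, vdac2, lay at -0.28 (adjusted p = 0.0462). Its single clone on set 1 was not called in the fit over all probes (limma, adjusted p = 0.0822). Without replicate 5, vdac1a was called on the SAM side (adjusted p = 0.014). In set 2, vdac1b lay at 0.07 (adjusted p = 0.66) and vdac2 at -0.33 (adjusted p = 0.0313). The call of vdac2 was lost with 5 of the 6 replicates left out in turn on set 1 and with 4 of the 6 on set 2. porin1 had a lower estimate than vdac1b and vdac2 on both sets and than vdac1a on set 1, where alone vdac1a was measured, and these differences were not tested.

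**Figure D5:**
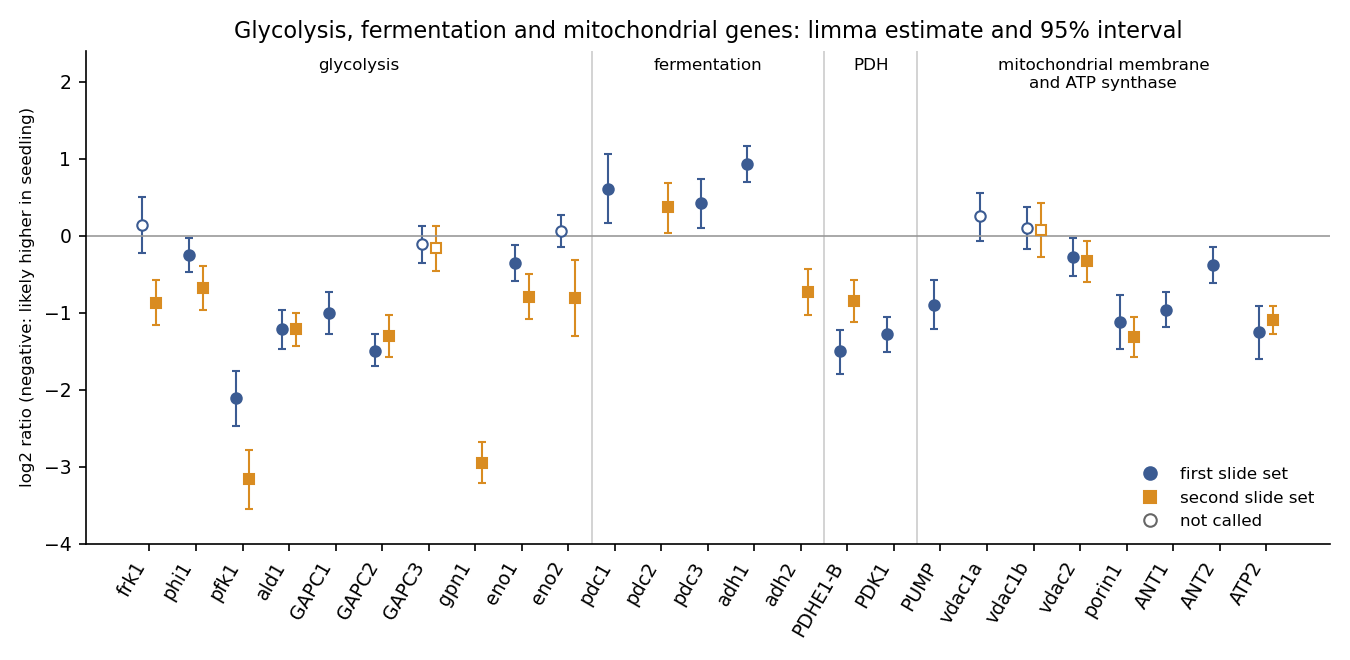
Limma estimate of the log2 ratio with its 95% interval for glycolysis, fermentation, pyruvate dehydrogenase (PDH) and mitochondrial genes on slide set 1 (circles) and slide set 2 (squares), open where not called. pfk1 and gpn1 lie lowest, at -3.16 and -2.95 on set 2, and adh1 highest at 0.93.

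The named genes whose values over the 6 slides were nearest to a member were found by the root-mean-square difference of the log2 ratios. On set 1, among 581 others, these were yptm3 (0.30) and ald1 (0.37) for ATP2, TUA1 (0.10) and uaz7c01b01 (0.17) for ANT1, and pdi (0.17) and eno1 (0.20) for ANT2. porin1 was nearest to LOC542358 (0.26) and to ANT1 (0.31), GAPC2 to LOC100101527 (0.18) and copz2 (0.21), and GAPC3 to tua3 (0.14) and LOC542194 (0.15). The median difference over all named genes lay between 1.02 and 1.64.

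On set 2, among 454 others, ATP2 was nearest to ABP3 (0.16) and GP (0.17), and porin1 to gdh1 (0.14) and ald1 (0.22). GAPC2 was nearest to cgs1 (0.17) and LOC542696 (0.23), and GAPC3 to PP1 (0.14) and nfd110 (0.22). Among these, ald1 was the 1 gene near a member on both sets, to ATP2 on set 1 and porin1 on set 2. The slides share their layout and RNA pools, and a small difference describes values only.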

How the data were processed

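Two-colour cDNA slides were scanned at rising settings, and 3 of 7 scans per slide were deposited. The authors' deposited values are log ratios, read here as natural log ratios and converted to log2, with log base, normalization and background handling not given in the sources used here. The base came from the values: 67 pairs of repeated values were separated by 2 times the natural log of an integer within 5e-06, against 0 pairs for log2 and 0 for log10. Slides of opposite dye orientation correlated positively (0.701 to 0.861 on set 1, 0.597 to 0.745 on set 2), so the deposited values were already turned 1 way. Slides of the same orientation correlated at 0.857 to 0.903 on set 1 and 0.852 to 0.901 on set 2. On set 2 every such pair was more alike than any pair of opposite orientation. In set 1, replicate 4, the high scan's source labels give seedling for both dyes, and its sample name was followed. Column medians lay between -0.08 and 0.057 log2.

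Of 19200 and 14080 spots, 18302 and 12027 were used, of which 1787 and 753 had 1 gene. Spots without a value (898 and 2001) and repeats among 53 identical spots were left out, as were 23 probes with several genes for gene values. Names came from the platform annotation and a RefSeq gene table.

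Scans were median-centred, then averaged per slide. In R 4.3.3, limma 3.58.1 (lmFit, eBayes) was fitted with an intercept and a term for the dye, and p-values were adjusted by Benjamini-Hochberg over all probes or named genes of a set. The dye term is the ratio with SAM in Cy3 minus that with SAM in Cy5. The slide sets were normalized separately and never tested against each other. The scripts were tested on simulated data. Python 3.11.15, pandas 2.3.3, numpy 2.4.6 and matplotlib 3.10.9 were used. Precision is limited by the number of slides, with a median SE per probe of 0.159 (set 1) and 0.119 (set 2).

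The members and lists were chosen with earlier results of these data known. Named genes are all members with every probe, the 2 with the smallest adjusted p per direction in each list, isoforms of the members' families, and the 2 nearest genes to each member. phi1, frk1 and eno2 were named outside this rule, after their values were seen, and pdc3 was named outside it too. Alternatives covered centring, scaling, single scans, dye handling, robust variance, a 2-fold limit, left-out replicates and repeated values, the log base and the median of probes.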

Additional observations from a re-analysis of the deposited data

Results flagged for a closer look

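In ATP2 on slide set 1, replicate 4 stood apart from the other slides at -0.50, against a mean of -1.40 over the other five. The GAPC2 probe 17423 on set 1 had replicate 6 apart, at -1.23 against a mean of -1.83. Of 44 series of 6 slides examined in this way, 2 were picked out, and chance picks about 1 in 20.

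The ratio differed with the dye of the SAM RNA in 3 of the 28 member probes of slide set 1, by the dye term of the fit. The share of all probes with such a term was not counted, so whether the members differ from other probes here is not known. The term was 1.64 for the ANT2 probe 829, 1.52 for the GAPC3 probe 2094 and -1.54 for the GAPC3 probe 13030.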

How the results depend on the processing

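Of 200 recomputed values of member genes, 195 kept their side of the threshold, and none with a call changed sign. Some of the 200 could not change. Reading the deposited values as log2 only rescales a ratio, and the median of 1 or 2 probes equals their mean. The 2-fold limit can only remove a call. GAPC3 on set 2, not called, was 0.12 with SAM in Cy3 alone. ANT2 lost its call with SAM in Cy3 alone (-0.13), ANT1 (-0.96) and ANT2 (-0.38) fell short of a 2-fold limit, and GAPC3 on set 2 gained one with SAM in Cy5 alone (-0.44). With a replicate left out, GAPC3 ranged from -0.28 to -0.09 there. With the 3 scans kept apart and the replicate as a random block (replicate block), no member gene changed its call, and 1 member probe of set 1 was called on the SAM side in place of 2. That count was also 1 in the medium scan alone, with no dye term, with SAM in Cy5 alone and under the 2-fold limit, and 1 to 2 with a replicate left out. The 2-fold limit left 13 member probes called on the seedling side of set 1. Over all probes it left 3060 toward the SAM and 3559 toward the seedling on set 1, and 1737 and 2138 on set 2. It left 2 and 3 other glycolysis genes on the seedling side, 1 was called on the SAM side of set 1 with SAM in Cy5 alone, and 3 to 4 on the seedling side with a replicate left out. The contrast of respiration and glycolysis was -0.39 on set 1 with ATP2 and porin1 alone, and 0.56 with GAPC2 alone, both chosen after seeing the data. For set 2 it was -0.34, -0.30 and -0.77 in the low, medium and high scan, -0.33 with deposited values read as log2, and 0.10 with GAPC2 alone. GAPC2 minus GAPC3 on set 2 was -1.69 in the low and -0.34 in the high scan. Fermentation genes called toward the SAM on set 1 were 1 with SAM in Cy5 alone and 0 under the 2-fold limit, and 2 to 3 with a replicate left out. On set 2 they were 0 with no centring, in the medium or high scan alone, with SAM in Cy3 alone, with the most common value of a scan left out and under the 2-fold limit, and 0 to 1 with a replicate left out. Toward the seedling the set 2 count was 0 with SAM in Cy5 alone and under the 2-fold limit. The other mitochondrial genes were PUMP, vdac1a, vdac1b, vdac2, PDHE1-B and PDK1 on set 1, and vdac1b, vdac2 and PDHE1-B on set 2. In the main fit, 4 were called toward the seedling on set 1 and 2 on set 2, and none toward the SAM. Over all named genes, 45.2% and 45.7% were called toward the seedling. Those called toward the SAM on set 1 were 1 with SAM in Cy5 alone and 0 to 1 with a replicate left out. Toward the seedling they were 2 on set 1 and 0 on set 2 under the 2-fold limit. On set 2 they were 1 in the low or medium scan alone, with no dye term and with SAM in Cy3 alone, and 1 to 2 with a replicate left out. The cause was not tested. No intensities were used here, so depth over background is unknown. All pairs of SAM and seedling RNA were hybridised together, so the pairing is within each ratio.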
